A study of Mus musculus with 2 samples.

Results

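TTP, encoded by *Zfp36*, belongs to a small group of proteins that recognize AU-rich elements in mRNAs and decide how long such mRNAs last. The expression of 10 genes of this group was described in the control RNA-Seq of the TTP crosslinking study, in which the rows of the FPKM table were selected by gene symbol. The members are the TTP family genes *Zfp36*, *Zfp36l1* and *Zfp36l2*, and the genes *Elavl1*, *Hnrnpd*, *Hnrpdl*, *Khsrp*, *Tia1*, *Tial1* and *Celf1*. All 10 symbols were found once among the 37451 genes of the table. The values are FPKMs, in which the fragments of a gene are scaled by its exon length and by the depth of the library, so that levels of different genes can be compared per length.

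One library came from WT BMDMs (bone marrow-derived macrophages) of C57BL/6 mice, and 1 from ΔM BMDMs of C57BL/6 TTP fl/fl LysMCre mice. In ΔM cells *Zfp36* is deleted by a Cre recombinase that the lysozyme M locus expresses in myeloid cells. The mice of both genotypes were littermates of 7 to 9 weeks of age, and their marrow was grown with CSF-1 from L929 cells. Total RNA was depleted of rRNA before sequencing. Both cultures received 100 μM 4-thiouridine for 16 h and 10 ng/ml LPS, the stimulus of Toll-like receptor 4, for 6 h. The sample titles read WT_LPS7 and dM_LPS7, and the time used here is that of the protocol. How many mice gave each culture and which exons of *Zfp36* are floxed is not given in the sources used here. With 1 library per genotype there is no replicate, no difference has a replicate check, and no p-value was calculated.

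By the steps between low FPKMs, the depth was about 36700000 fragments for the WT library and 32500000 for the ΔM library. These depths set the 95% Poisson intervals below, which cover counting error only. Of the 9 macrophage markers found in the table, all averaged 1 FPKM or more over the libraries, and their median log2 ratio of ΔM to WT was 0.01. *Lyz2*, the gene of the locus that drives Cre, measured 2481 FPKM for WT and 1356 FPKM for ΔM, and its part in the results below was not tested. Marker lists for T cells, B cells, NK cells, neutrophils, dendritic cells, fibroblasts, erythroid cells and mast cells had sums from 0.03 to 1.04 FPKM for WT and from 0.01 to 0.77 FPKM for ΔM. *Cd3e*, *Ncr1*, *Ly6g* and *Mcpt4* were listed at 0 in both, but other markers of these lists were not. The highest was *Cd4* of the T cell list, at 1.03 (WT) and 0.77 FPKM (ΔM). *Camp* of the neutrophil list was at 0 (WT) and 0.41 FPKM (ΔM). In bulk RNA, fewer cells that express a gene and less RNA per cell cannot be told apart.

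AU-rich elements are stretches of A and U in the 3′ UTRs of short-lived mRNAs, such as those of cytokines, chemokines and immediate-early genes. Proteins of the TTP family bind them through a tandem CCCH zinc finger and bring in the deadenylation machinery. AUF1 (*Hnrnpd*), its relative (*Hnrpdl*) and KSRP (*Khsrp*) are mostly linked with decay, HuR (*Elavl1*) with stabilization, and TIA-1 (*Tia1*) and TIAR (*Tial1*) with translational silencing, whereas CELF1 (*Celf1*) prefers GU-rich elements. In macrophages TTP is induced by LPS, and its mRNA carries AU-rich elements of its own.

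The 3′ UTRs of the members were searched for the pentamer ATTTA, the core of the element, and for the heptamer TATTTAT, which contains it, on the sense strand of the longest coding transcript (GENCODE M1 on NCBIM37, that is, mm9). The windows that follow show where the family genes and *Elavl1* hold the heptamer, with 10 nt on either side and the heptamer in capitals, in the sense orientation of genes on the minus strand.
*Zfp36*, chr7:29161986-29162012: gtgggcccttTATTTATgacgacttta
*Zfp36*, chr7:29161946-29161972: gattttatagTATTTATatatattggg
*Zfp36l1*, chr12:81209410-81209436: tatcaaaacgTATTTATtgccaaacta
*Zfp36l2*, chr17:84584207-84584233: gtccatactgTATTTATcgagtatgat
*Elavl1*, chr8:4285785-4285811: gaaaatTATTTATTTATTTATTTATtt

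In the *Elavl1* window heptamers overlap in a run of ATTT repeats, whereas the windows of the family genes shown here hold 1 heptamer each. The 3 heptamers of *Zfp36* lie within its 3′ UTR of 774 nt. Among the 2593 genes with a 3′ UTR within 1.25-fold of this length, 19.8% hold at least 1 heptamer. *Zfp36l1* holds 3 heptamers in 1829 nt and *Zfp36l2* holds 3 in 1822 nt, where 37.2% and 37.1% of genes of like length hold any. *Elavl1* has the most, with 8 heptamers and 18 pentamers in 4818 nt, where 62.5% of genes of like length hold the heptamer.

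The other members hold fewer of these motifs for their length. *Tia1*, *Tial1* and *Celf1* have 1 heptamer each, in 3′ UTRs of 3036, 2756 and 6132 nt, and *Hnrnpd*, *Hnrpdl* and *Khsrp* have 0. All 10 members hold at least 1 pentamer, against 60.6% of the 19982 genes with a 3′ UTR, and 7 of the 10 hold the heptamer, against 23.8%. All members but *Zfp36* have 3′ UTRs longer than the median of 797 nt over these genes, and long sequences hold such words more often. Among genes of like length, the share with a pentamer ran from 65.4% for *Zfp36* to 99.5% for *Celf1*. The share with a heptamer ran from 19.8% for *Zfp36* to 68.8% for *Celf1*. *Khsrp*, with 1 pentamer in 1635 nt, has the lowest density of the 10, at 0.61 pentamers per kb against 1.82 over all 3′ UTRs, and *Zfp36l1* the highest, at 4.92.

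**Figure D1:**
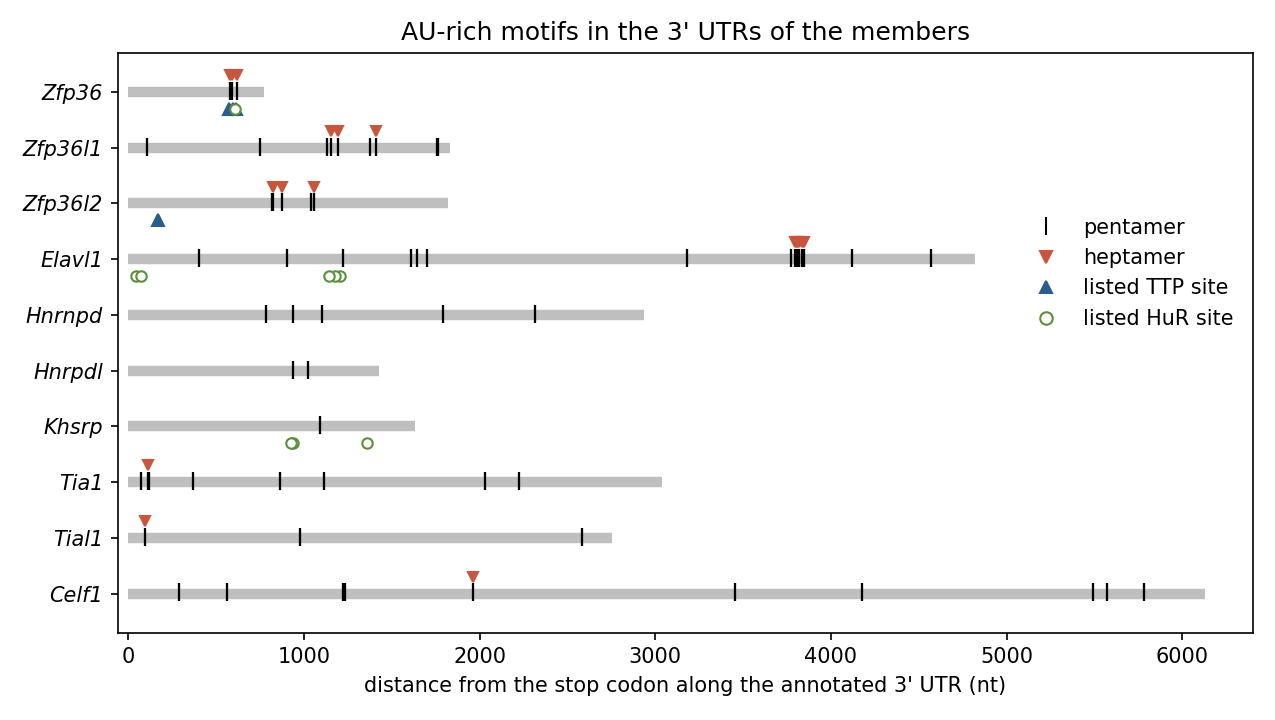
Map of the annotated 3′ UTR of each of the 10 members, drawn to scale as grey bars from the stop codon in nt. Black ticks are pentamers, red triangles heptamers, blue triangles listed TTP sites and open green circles listed HuR sites, where a site matched a single place. The 3 heptamers of *Zfp36* lie within or overlap its TTP sites, whereas the TTP site of *Zfp36l2* and the HuR sites of *Elavl1* lie away from the heptamers of these genes.

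Sequences crosslinked to TTP or HuR in LPS-treated BMDMs, as listed by the study, were located in these 3′ UTRs where they matched a single place. They show which members are themselves among the mRNAs that TTP or HuR contacts. Capitals mark the pentamer in TTP sites and runs of at least 5 T in HuR sites, and a site longer than 30 nt is shown by its central 30 nt.
*Zfp36*, TTP, chr7:29161950-29161972: gattttatagtATTTAtatatat
*Zfp36*, TTP, chr7:29161975-29161990: ctttATTTAttgtatt
*Zfp36*, TTP, chr7:29161998-29162006: cctttattt
*Zfp36*, HuR, chr7:29161965-29161971: attttat
*Zfp36l2*, TTP, chr17:84584909-84584938: tttttgttttttattattatttttattatt
*Elavl1*, HuR, chr8:4289544-4289573: ttcTTTTTTTTTTccttttcTTTTTTcttt
*Khsrp*, HuR, chr17:57160746-57160763: cTTTTTTTTTTTTTTTTT

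Of the 3 TTP sites of *Zfp36*, the longer ones hold 1 heptamer each, and the site of 9 nt holds 0 pentamers and overlaps the remaining heptamer at its end. *Zfp36* also has a HuR site of 7 nt, at positions 606 to 612 of its 3′ UTR, inside the TTP site at positions 605 to 627. The *Zfp36l2* site, 35 nt long, holds 0 pentamers and is 80% T, and the part shown spans positions 155 to 184 of the 3′ UTR, ahead of the heptamers of that gene, which begin at positions 822, 870 and 1056. The HuR sites shown are T-rich without a pentamer. For *Elavl1* and *Khsrp* only the longest HuR site is shown. Their further listed HuR sites are 42.9% to 73.7% T in *Elavl1* and 55.6% to 75% T in *Khsrp*. The shortest of *Khsrp*, of 4 nt and 3 nt, match 7 and 41 places in its 3′ UTR and were not placed. A member without a site here is not thereby unbound, because the lists used here are incomplete.

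*Zfp36* is described first, since it is the deleted gene. *Zfp36* (ENSMUSG00000044786; chromosome 7, 29161803 to 29164274, minus strand) has 1 annotated transcript of 1792 nt. In WT it reached 65.3 FPKM, with a counting interval from 63.2 to 67.4 FPKM. In ΔM it was at 16.7 FPKM, with an interval from 15.6 to 17.9 FPKM. The level in ΔM was 0.256 times that in WT (0.238 to 0.276), and the intervals of the libraries did not overlap. The log2 ratio, calculated after adding 1 FPKM to both values, was -1.90. Among the 8078 protein-coding genes that averaged 1 FPKM or more, 11 (0.136%) had a ratio this low or lower, *Zfp36* included, and among all 10765 genes past this minimum 1.99% did. *Zfp36* was thus lower in the library labelled ΔM but not at 0, and about 866 fragments still fell on the gene. Because the gene value covers all exons, it does not show whether these fragments lie inside or outside the floxed part.

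The paralogs *Zfp36l1* (BRF1) and *Zfp36l2* (BRF2) encode proteins with the same type of zinc finger as TTP and also promote decay of AU-rich mRNAs. *Zfp36l1* (ENSMUSG00000021127; chromosome 12, 81208747 to 81214000, minus strand) was at 0.35 FPKM in WT (0.23 to 0.50) and at 0.99 FPKM in ΔM (0.78 to 1.249). *Zfp36l2* (ENSMUSG00000045817; chromosome 17, 84583271 to 84587287, minus strand) was at 0.71 FPKM in WT (0.54 to 0.93) and at 1.22 FPKM in ΔM (0.98 to 1.51). Both were higher in the ΔM library, and for both the counting intervals of the libraries did not overlap. The plain ratio of ΔM to WT was 2.83 for *Zfp36l1* (1.83 to 4.53) and 1.72 for *Zfp36l2* (1.21 to 2.45). These ratios rest on about 29.1 and 72.8 fragments for *Zfp36l1*, and on about 55.7 and 84.8 for *Zfp36l2*. Among the 1221 protein-coding genes with a mean of 0.5 up to 1 FPKM and above 0 in both libraries, 4.91% had a ratio at least as high as *Zfp36l1* and 16.2% one at least as high as *Zfp36l2*.

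For the paralogs the interval also depends on the transcript counted and on copies elsewhere in the genome. With the shortest coding transcript of *Zfp36l2* (1141 nt) its ratio lay between 0.98 and 2.90, an interval that holds 1. For *Zfp36l1* the shortest coding transcript gave 1.73 to 4.94. Of the 100-nt windows of *Zfp36l2*, 16 of 69 match another place in the genome with at most 2 mismatches and 12 match it identically, most of them on chromosome 7 from 88565383 to 88566233. For *Zfp36l1*, 14 of 58 windows have such a match on the X chromosome, 1 of them identical. Since uniquely mapped reads were kept, the FPKMs of both paralogs may be too low in both libraries. How much this changes the ratios was not tested.

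The balance within the family followed from these levels. *Zfp36* made up 98.4% of the summed FPKM of the 3 genes in WT and 88.3% in ΔM. The sum itself was 66.3 FPKM for WT and 18.9 FPKM for ΔM. The paralogs together were at 1.06 (WT) and 2.21 FPKM (ΔM), beside a difference of ΔM minus WT of -48.55 FPKM for *Zfp36*. In ΔM, *Zfp36* was 16.9 times as high as *Zfp36l1* and 13.7 times as high as *Zfp36l2*, against 186 and 91.9 times in WT. The ΔM value of *Zfp36* is that of the deleted gene over all exons, so it is not shown to be mRNA that encodes TTP. With TTP immunoprecipitation, the paper detected RNA in WT and none in ΔM BMDMs. The shares and ratios for ΔM therefore describe fragments and not the balance of the proteins.

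**Figure D2:**
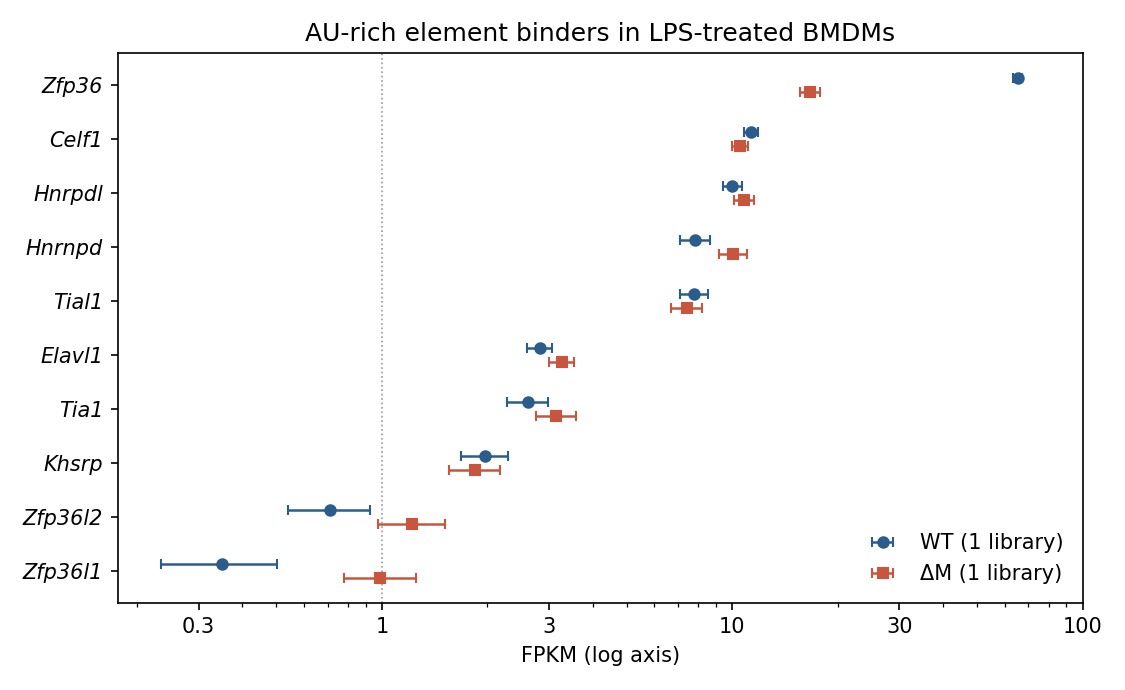
FPKM of the 10 members (log axis) in the WT library (blue circles) and the ΔM library (red squares), with 95% Poisson counting intervals as bars. *Zfp36* moves from 65.3 to 16.7 FPKM, the paralogs lie at the bottom near the dotted line at 1 FPKM, and the intervals of most other members overlap between the libraries.

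HuR, the product of *Elavl1*, stabilizes mRNAs and is often regarded as an antagonist of TTP. In the paper, only a minority of target mRNAs held 3′ UTR sites for both proteins. Joint control of mRNA stability by TTP and HuR was there called an exception. *Elavl1* (ENSMUSG00000040028; chromosome 8, 4284782 to 4325100, minus strand) was at 2.82 FPKM in WT (2.60 to 3.06) and at 3.26 FPKM in ΔM (3.01 to 3.53). Its ratio of ΔM to WT was 1.16 (1.03 to 1.29), and its log2 ratio was 0.16. This is a small difference, since 34.1% of the 10765 genes compared had a higher log2 ratio. The ratio of *Zfp36* to *Elavl1* mRNA was 23.1 in WT and 5.13 in ΔM, with *Elavl1* itself close to its WT level.

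AUF1 and its relative are made from neighbouring genes on chromosome 5, with 54638 nt between them. *Hnrnpd* (ENSMUSG00000000568; 100387445 to 100407957, minus strand) was at 7.85 FPKM in WT (7.10 to 8.65) and at 10.04 FPKM in ΔM (9.14 to 11.0). Its ratio of 1.28 (1.12 to 1.47) was the highest of the members that averaged 1 FPKM or more, and 21.3% of all genes compared had a higher log2 ratio. *Hnrnpd* has 12 annotated transcripts, and with the shortest coding one (483 nt) the interval ran from 0.94 to 1.75. *Hnrpdl* (ENSMUSG00000029328; 100462596 to 100468683, minus strand) was at 10.02 FPKM in WT (9.39 to 10.7) and at 10.84 FPKM in ΔM (10.1 to 11.6), a ratio of 1.08 with an interval from 0.99 to 1.19. In WT *Hnrpdl* was 1.28 times as high as *Hnrnpd*, without overlap of their intervals at the median coding transcript length. In ΔM it was 1.08 times as high.

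KSRP binds AU-rich elements through KH domains and recruits decay enzymes. *Khsrp* (ENSMUSG00000007670; chromosome 17, 57160481 to 57170930, minus strand) was at 1.97 FPKM in WT (1.68 to 2.29) and at 1.84 FPKM in ΔM (1.55 to 2.17). The ratio was 0.93, with an interval from 0.75 to 1.18 that holds 1. Counting error at this depth would cover a change of either sign.

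TIA-1 and TIAR are related proteins with RNA recognition motifs that hold AU-rich mRNAs back from translation. *Tia1* (ENSMUSG00000071337; chromosome 6, 86354213 to 86383397, plus strand) was at 2.62 FPKM in WT (2.28 to 2.99) and at 3.15 FPKM in ΔM (2.75 to 3.58), a ratio of 1.202 (0.99 to 1.45). *Tial1* (ENSMUSG00000030846; chromosome 7, 135583291 to 135605231, minus strand) was at 7.79 FPKM in WT (7.09 to 8.54) and at 7.43 FPKM in ΔM (6.71 to 8.21), a ratio of 0.95 (0.83 to 1.09). Both intervals hold 1. *Tial1* was the higher of the pair in both libraries, by 2.97 times in WT and 2.36 times in ΔM.

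CELF1 binds GU-rich elements, which like AU-rich elements mark mRNAs for decay. *Celf1* (ENSMUSG00000005506; chromosome 2, 90780539 to 90859654, plus strand) was at 11.3 FPKM in WT (10.8 to 11.9) and at 10.55 FPKM in ΔM (10.0 to 11.1). The ratio of 0.93 was close to that of *Khsrp*, and its interval ran from 0.87 to 1.00057, so that it just held 1.

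In the order of levels, *Zfp36* was the highest of the 10 in both libraries, with its ΔM value that of the deleted gene. In WT it was 5.77 times as high as *Celf1*, the next member, and in ΔM 1.54 times as high as *Hnrpdl*, the next member there. *Celf1*, *Hnrpdl*, *Hnrnpd* and *Tial1* formed the middle of the order, between 7.43 and 11.3 FPKM in the 2 libraries. *Hnrnpd* and *Tial1* overlapped in WT, and *Hnrpdl*, *Celf1* and *Hnrnpd* overlapped as neighbours in ΔM. *Elavl1* and *Tia1* overlapped in both libraries, *Tia1* and *Khsrp* in WT, and the paralogs *Zfp36l2* and *Zfp36l1* in ΔM. The other neighbours were apart by more than their counting intervals at the median coding transcript length. With the shortest coding transcripts fewer fragments are counted, in WT about 24.6 for *Zfp36l2* and 22.3 for *Zfp36l1*. The order was not compared at that length. *Celf1* and *Hnrpdl* exchanged places between the libraries, and every other member kept its rank. Among the protein-coding genes compared, *Zfp36* was at percentile 92.5 in WT and 74.6 in ΔM, *Celf1* at percentiles 65.0 and 64.0, and *Khsrp* at percentiles 17.7 and 15.4.

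**Figure D3:**
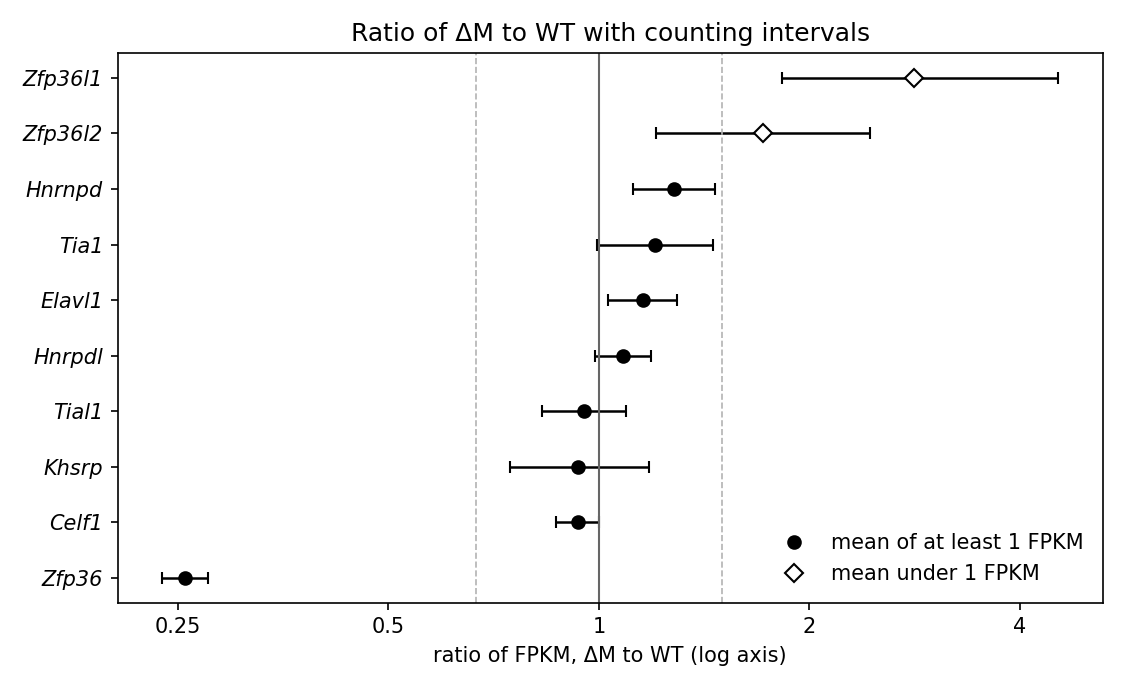
Ratio of ΔM to WT FPKM for each member (log axis) with its 95% counting interval, filled for members that averaged 1 FPKM or more and open for the others. The solid line marks a ratio of 1 and the dashed lines 1.5-fold in either direction. *Zfp36* alone lies beyond the lower line, and the values of the paralogs lie beyond the upper one. The interval of *Zfp36l2* (1.21 to 2.45) crosses the upper line. Of the 1221 protein-coding genes averaging 0.5 up to 1 FPKM and above 0 in both libraries, 21.3% had a ratio of at least 1.5.

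Across the members, 8 of 10 averaged 1 FPKM or more, and *Zfp36l1* and *Zfp36l2* did not. Over all 10 members, 6 were higher in ΔM and 4 lower, where 53.8% of the 10765 genes compared were higher. Of the 8, *Zfp36* was more than 2-fold lower in ΔM on the FPKM + 1 scale, beside 3.61% of all genes compared and 1.32% of protein-coding genes, and 0 members were 2-fold higher, beside 5.69% and 1.19%. At 1.5-fold, 1 member was lower, beside 7.51% of genes, and 0 members were higher, beside 11.2% of genes. Among protein-coding genes the shares at 1.5-fold were 5.36% lower and 4.82% higher. The 7 members other than *Zfp36* that passed this minimum had log2 ratios between -0.09 and 0.32. *Hnrnpd*, the highest of the 7, had 21.3% of the genes compared above it, and *Celf1*, the lowest, had 34.6% below it. The sum of the 9 members other than *Zfp36* was 45.4 FPKM for WT and 49.3 FPKM for ΔM, while *Zfp36* made up 59.0% of the FPKM of all 10 members in WT and 25.3% in ΔM.

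The surroundings of these genes were described with 3 further lists. Of 22 other proteins reported to bind AU-rich or related elements, 15 passed the minimum of 1 FPKM. Their median log2 ratio was 0.07, against 0.03 over all genes compared. Of the 15, 0 differed by 1.5-fold in either direction, beside 11.2% of all genes higher and 7.51% lower. Among protein-coding genes the shares were 4.82% higher and 5.36% lower, and 0 of 15 is not far from these. Of these 15, *Hnrnpab* was the highest in WT, at 40.6 (WT) and 33.9 FPKM (ΔM). The neuronal HuR relatives *Elavl2*, *Elavl3* and *Elavl4* were at or below 0.1 FPKM in both libraries, and so was *Zfp36l3*, the placental member of the TTP family.

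Cofactors of TTP comprise the CCR4-NOT deadenylase, decapping and 5′ to 3′ decay factors, poly(A)-binding proteins, the GIGYF2 and 4EHP repressors, 14-3-3 proteins and the nucleoporin NUP214. All 25 genes of this list passed the minimum, with a median log2 ratio of 0.00 and 2 genes higher and 1 lower by at least 1.5-fold, beside 11.2% and 7.51% of all genes compared and 4.82% and 5.36% of protein-coding genes. These counts are near the shares over all genes, and the 3 genes are given as values only. *Ywhaz*, a 14-3-3 gene, measured 11.5 FPKM for WT and 20.55 FPKM for ΔM. *Cnot8*, a catalytic subunit of the deadenylase, measured 4.64 FPKM for WT and 8.46 FPKM for ΔM. *Cnot6l*, another catalytic subunit, measured 15.6 FPKM for WT and 8.68 FPKM for ΔM. The list as a whole thus showed no common direction, with 13 genes higher and 12 lower in ΔM.

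The last list holds mRNAs of the kind that the members bind. The list includes mRNAs in which the paper reports TTP sites: *Tnf*, *Il6*, *Il10*, *Il1a*, *Il1b*, *Cxcl1*, *Cxcl2*, *Ccl3* and *Ptgs2*. The paper also reports binding of TTP to *Fos* mRNA, and other mRNAs of the list may hold TTP sites as well. Of 23 mRNAs with a well-known AU-rich element, 17 passed the minimum. Of these, 14 were higher in ΔM, beside 53.8% of all genes compared. Their median log2 ratio was 0.57, with 8 genes higher and 0 lower by at least 1.5-fold. This stands beside 11.2% and 7.51% of all genes, and 4.82% and 5.36% of protein-coding genes. *Cxcl2* measured 87.9 FPKM for WT and 440 FPKM for ΔM, and *Cxcl1* at 11.99 and 62.6 FPKM. *Il10*, an anti-inflammatory cytokine, measured 45.1 FPKM for WT and 161 FPKM for ΔM, and the chemokine *Ccl3* at 923 and 2501 FPKM. Not all mRNAs of the list were higher, and *Il1b*, *Il1a* and *Il12b* were lower in ΔM, with log2 ratios of -0.24, -0.33 and -0.44. The difference between the binders and the mRNAs was not tested.

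**Figure D4:**
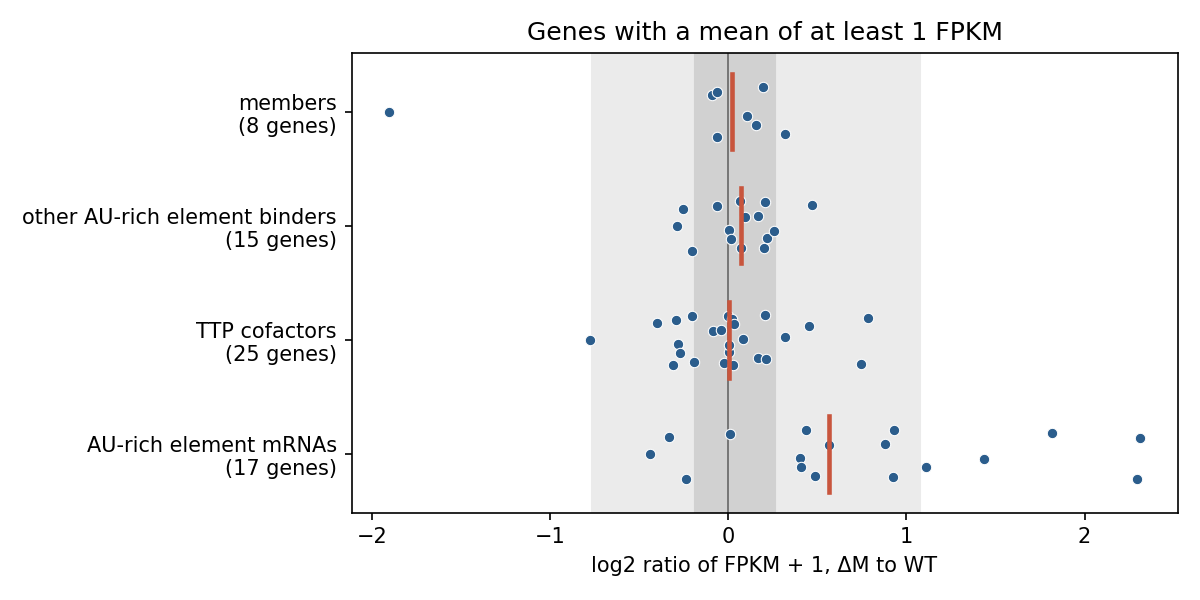
Log2 ratios of ΔM to WT (FPKM + 1) of the members and of 3 further lists, for genes that averaged 1 FPKM or more. Points are genes, red lines are medians, the dark grey band runs between the quartiles of all 10765 genes compared, at -0.19 and 0.26, and the light grey band from -0.76 to 1.08, their 5th and 95th percentiles. The single low point among the members is *Zfp36*, and the AU-rich element mRNAs extend to 2.31.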

How the data were processed

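RNA-Seq of 1 WT and 1 ΔM library was analysed. Reads were trimmed by the authors with Cutadapt and aligned to mm9 by Segemehl. Only reads with a unique position were kept, and Cufflinks 2.0.2 gave expression over Ensembl exons. The deposited values are FPKMs, 1 per gene and library, for 37451 genes, 1 of them without a number in ΔM. A loss of one character in the header left the ΔM column as a symbol and M, and it was assigned as the only other sample.

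Log2 ratios used FPKM + 1, and genes averaging under 1 FPKM were left out. FPKMs are not counts, so no count test was used. Fragments were estimated from FPKM steps of genes with 1 transcript of 300 to 900 nt. At a mean fragment of 198 nt, 92.3% of 672 low values in WT and 92.4% of 725 in ΔM were whole within 0.1. By chance 20% would be for a depth and length set in advance, but both were searched to raise this share. In 3 simulated libraries the search found the depth within 0.56%. These were simulated by the formula that the search assumes, so they do not test whether it holds for the deposited values. Intervals used the median coding transcript length, and those of ratios were exact binomial given the sum. Gene models came from GENCODE M1 (NCBIM37), whose starts matched the table's for all 10 members. Windows of 100 nt were aligned with minimap2 2.31, keeping at most 2 mismatches. Python 3.11.15, pandas 2.3.3, scipy 1.17.1 and matplotlib 3.10.9 were used.

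The members and lists were chosen with earlier results of these data known. Named are all 10 members and, per list, at most the 4 genes furthest from 0 past 1.5-fold. *Lyz2*, the single markers of other cell types, *Hnrnpab*, the *Elavl* relatives, *Zfp36l3* and the lower interleukins were named after their values were seen. Alternatives covered the pseudocount, the filter, scaling, the background, transcript choice and the measure of shares.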

Additional observations from a re-analysis of the deposited data

How the results depend on the processing

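No paired analysis was possible because each genotype has only 1 library, and no library could be left out. No member changed sign under any of the 6 alternatives for its log2 ratio, which covered pseudocounts and scaling. A pseudocount cannot change a sign. The scalings moved the median log2 ratio of all genes compared only from 0.028 to between 0.021 and 0.049. The kept signs therefore say little about members with a ratio near 1. The log2 ratio of *Zfp36* lay between -1.97 and -1.69, the latter with a pseudocount of 5 FPKM. That of *Zfp36l1* ran from 0.16 with 5 FPKM to 1.5 without a pseudocount, because the pseudocount exceeds its level. With a pseudocount of 0.1 FPKM and no filter on low values, an alternative chosen after seeing the data, 2 members were higher by 1.5-fold and 1 by 2-fold, in place of 0 and 0, beside 10.3% and 4.82% of genes under the same setting. The share of genes higher by 1.5-fold was 4.82% among protein-coding genes only and 3.71% without a filter, and lower 2.62% without a filter. At 2-fold these shares were 1.19% and 1.72% higher, and 1.32% and 1.12% lower. By fragments in place of FPKM, *Zfp36* made up 84.6% of the family in ΔM. With a mean of at least 10 FPKM the median log2 ratio was -0.066 for the other binders, -0.19 for TTP cofactors, of which 1 was then higher by 1.5-fold, and 0.88 for AU-rich mRNAs. With a pseudocount of 0.1 FPKM, 2 TTP cofactors were lower by 1.5-fold. Of 139 comparisons, 118 stayed the same by the rule set for their kind. Member log2 ratios and family shares had to stay within counting error, and list medians within 0.1. Counts and shares past a fold had to stay within 1.5 times the value reported, or at 0 where it was 0. Motif counts had to be equal. Depth limits *Zfp36l1* most, at about 29.1 fragments in WT.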

Other observations

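The values of this part were noticed in the data. *Ncl* and *Hnrnpa1*, abundant RNA-binding protein genes in most cells, were at 0.86 and 0.32 FPKM in WT and at 0.69 and 0.24 FPKM in ΔM, far below *Hnrnpab* of the same list. Whether near-identical copies take up their reads was not tested. Of the members, *Hnrpdl* has 5 of 54 windows and *Khsrp* 6 of 78 windows that match another place in the genome with at most 2 mismatches, whereas *Zfp36*, *Elavl1*, *Hnrnpd*, *Tia1*, *Tial1* and *Celf1* have 0. The copy of *Hnrpdl* on chromosome 4 is annotated as the pseudogene *Gm11488*, which measured 1.42 FPKM for WT and 1.70 FPKM for ΔM. The copy of *Zfp36l1* on the X chromosome is the pseudogene *Gm14556*, at 0 (WT) and 0.04 FPKM (ΔM). The copy of *Zfp36l2* lies within *Cpeb1*, at 0.23 (WT) and 0.48 FPKM (ΔM).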
